A study of Homo sapiens with 6 samples.

Results

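The genes examined were 10 plasma membrane amino acid transporters, SLC7A5, SLC3A2, SLC1A5, SLC7A11, SLC38A1, SLC38A2, SLC7A1, SLC7A6, SLC1A4 and SLC43A1, out of 13572 genes tested on the same arrays. They were chosen by name, with earlier results of these data known, and every probe set annotated to one of them alone was taken, 27 in all. The cells were Kasumi-1, a human line from an acute myeloid leukaemia with a RUNX1-RUNX1T1 fusion. Of 6 samples, 3 were cells treated for 24 h with 20 nM homoharringtonine (HHT), a plant alkaloid that blocks translation elongation, and 3 were cells given vehicle for 24 h. All came from 1 cell line grown in the same medium, and RNA was hybridised to one-colour Affymetrix 3′ expression arrays. The labels number the samples 1 to 3 within each group without saying whether they were separate cultures, so p-values rest on a spread among arrays that may be technical.

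Cells take up amino acids through carriers that differ in substrate and in driving force. SLC3A2, also called CD98 heavy chain, carries no amino acid itself. It is bound by a disulfide bridge to a light chain of the SLC7 family, which does the transport, and brings it to the cell surface. SLC7A5 (LAT1) imports leucine and other large neutral amino acids in exchange for intracellular glutamine, SLC7A11 (xCT) imports cystine in exchange for glutamate, and SLC7A6 (y+LAT2) exchanges cationic for neutral amino acids. The others work without SLC3A2. SLC43A1 (LAT3) carries branched-chain amino acids by facilitated diffusion, SLC7A1 (CAT1) takes up arginine and lysine, SLC1A5 (ASCT2) and SLC1A4 (ASCT1) are sodium-dependent neutral exchangers, and SLC38A1 (SNAT1) and SLC38A2 (SNAT2) take up glutamine and alanine with sodium. Leukaemic blasts are known for a high demand for glutamine, leucine, cystine and arginine.

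After HHT, 8 of the 10 genes were lower, 1 was higher and 1 was not called. Calls required an adjusted p under 0.05 in limma and were taken from each gene's brightest probe set. Across all genes 24.2% were called lower and 29.6% higher, or 53.8% in either direction. The median log2 change of the 10 genes was -1.09, against -4.15e-05 over all 13572 genes. SLC7A5, a leucine carrier, fell most, to an 8.84-fold lower signal, followed by SLC7A1, an arginine carrier, at 3.18-fold. SLC3A2, the heavy chain shared by SLC7A5, SLC7A11 and SLC7A6, rose 1.61-fold. The HHT arrays were all below the vehicle arrays for 9 genes and all above them for SLC3A2, where 29% and 33.2% of all genes had such separations, or 62.2% in either direction. A log2 change of at least 1 in size and a call were found for 6 of the 10, all lower. In all genes 5.94% were lower by this rule and 9.56% higher. The plot of each gene by array shows that the gap between groups exceeded the spread within groups for all genes except SLC1A4, whose groups lay close together.

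**Figure D1:**
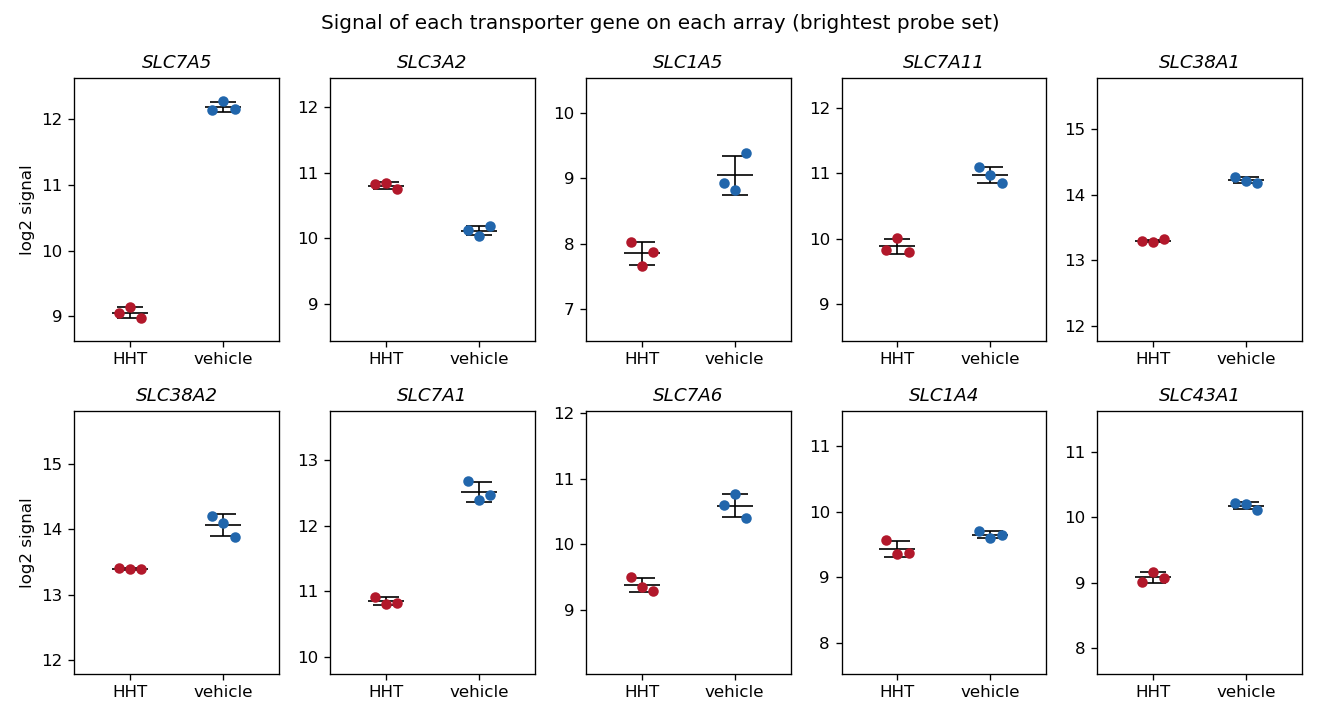
Log2 signal of the brightest probe set of each transporter gene (y axis, all panels spanning 4 log2 units) on the 3 HHT and the 3 vehicle arrays (x axis), with 1 point per array and a black bar for the mean ± SD. SLC7A5 has the widest gap, with HHT at 8.97 to 9.14 and vehicle at 12.14 to 12.28, and SLC3A2 is the gene with HHT above vehicle.

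The arrays are described in brief, as far as they touch these genes. The array medians were 5.53 to 5.77 in HHT and 5.82 to 5.96 in vehicle, and 18 control probe sets for transcripts added at hybridisation averaged 11.70 ± 0.0598 in HHT and 11.98 ± 0.0282 in vehicle (SD, n = 3 each). Because of this, each change was recomputed after setting the array medians equal, after setting the hybridisation controls equal, and by quantile normalization. The first and second moved the median of all genes by 0.24 and 0.28, and the share of calls that were higher from 55.05% to 74.7% and 76.4%. The third moved the median by 0.05 and that share to 56.5%. Of the line's own markers, KIT (14.22 in HHT and 14.83 in vehicle), MPO (12.63 and 14.39), PTPRC (13.20 and 12.43) and RUNX1T1 (13.20 and 13.23) were bright and CD34 (8.03 and 9.20) was dimmer. SPI1 (5.58 and 4.81) and CD38 (4.22 and 3.50) were dim, and CD33 was not analysed here. KIT (-0.62), MPO (-1.76) and CD34 (-1.18) were called lower in HHT and PTPRC (0.77) higher. RUNX1T1 (-0.03) and SPI1 (0.78) were not called, and CD38 was too dim to be tested. Of 15 markers of T, B, erythroid, fibroblast and epithelial cells, 14 had a probe set, 9 of them averaged above 4.80 and none was at 0 on every array. EPCAM (12.93 in HHT and 13.69 in vehicle) and CD3D (11.76 and 11.62) were bright. The other epithelial markers, KRT19 (2.80 and 2.69) and CDH1 (3.45 and 4.91), were dim. So were the other T cell markers, CD3E (5.01 and 5.84) and CD3G (3.56 and 4.19). EPCAM fell by 0.76 (adjusted p = 1.58e-06), and by 0.49 under quantile normalization and 0.48 under equal hybridisation controls. The B cell marker CD22 (8.34 and 6.86) rose by 1.48 (SE 0.189, adjusted p = 8.23e-05), and of its other tested probe sets 1 rose by 1.31 (adjusted p = 0.0125) and 1 was not called at 0.62. Of the other B cell markers, MS4A1 (4.94 and 5.36) was not called at -0.42, and CR2 (2.28 and 3.07) was too dim to be tested. The fibroblast marker COL1A1 (6.62 and 7.48) fell by 0.86 (SE 0.281, adjusted p = 0.0282), a call lost under equal medians, equal hybridisation controls and no variance trend and without HHT replicate 3, vehicle replicate 2 or vehicle replicate 3 (adjusted p = 0.0521 to 0.129). The other tested COL1A1 probe set was not called at 0.25. The summed antilog signal of the 14 was 11706 to 12444 in HHT and 16783 to 17259.8 in vehicle, and without EPCAM and CD3D it was 624 to 778 in HHT and 697 to 724 in vehicle. Their part in the results was not tested. In RNA from a whole culture, fewer cells of one kind and less RNA per cell cannot be told apart.

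Promoter sequences from RefSeq (GRCh38.p14) were matched for 9 of the 10 genes, with 16 start sites between them. SLC7A11 had no entry. Each window ran from 250 bases before to 50 bases after the start. Those of SLC7A5 and SLC7A1 are shown as the genes that fell most, 1 of SLC43A1 as another leucine carrier, and a stretch of SLC3A2 as the gene that rose. The SLC43A1 window shown holds a motif match, and the SLC3A2 stretch was cut around one. The other SLC43A1 window and the other SLC3A2 windows hold no match to the motifs named below. Matches in other genes are given below them by name. Only bases before the start are printed, 5′ to 3′ on the gene's strand, with whole motif matches in capitals.
SLC7A5, chr16:87869508-87869757, minus strand: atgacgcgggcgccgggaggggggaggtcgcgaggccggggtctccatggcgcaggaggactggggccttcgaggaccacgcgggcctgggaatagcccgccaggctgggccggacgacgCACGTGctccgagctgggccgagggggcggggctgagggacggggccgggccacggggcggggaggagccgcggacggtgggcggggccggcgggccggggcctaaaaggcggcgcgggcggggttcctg
SLC7A1, chr13:29595689-29595938, minus strand: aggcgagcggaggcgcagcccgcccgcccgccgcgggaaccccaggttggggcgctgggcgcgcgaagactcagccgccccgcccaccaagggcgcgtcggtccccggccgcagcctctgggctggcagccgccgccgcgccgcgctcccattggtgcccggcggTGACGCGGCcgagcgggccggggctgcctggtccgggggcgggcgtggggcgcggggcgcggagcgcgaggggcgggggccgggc
SLC43A1, chr11:57515703-57515952, minus strand: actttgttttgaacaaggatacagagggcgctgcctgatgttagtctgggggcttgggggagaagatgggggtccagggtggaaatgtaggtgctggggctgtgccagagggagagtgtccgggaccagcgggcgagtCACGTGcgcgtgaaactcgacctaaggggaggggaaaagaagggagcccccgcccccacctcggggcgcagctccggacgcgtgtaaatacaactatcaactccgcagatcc
SLC3A2, chr11:62881651-62881680, plus strand: acgagggtgggTGACTCAGCgtcctccttc

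Motifs were searched on both strands. The E-box CACGTG, the core bound by MYC with MAX, was in 3 of the 16 windows, 1 each of SLC7A5, SLC1A5 and SLC43A1, and in 7.26% of all 35116 RefSeq promoter windows. In SLC7A5 it began at base -130 from the start and in SLC43A1 at -112. The letters TGATGNAA, the core of the amino acid response element bound by ATF4 with a C/EBP partner, were in 5 windows, 1 each of SLC3A2, SLC1A5, SLC38A1, SLC7A1 and SLC1A4, and in 3.62% of all windows. The letters TGACNNNGC, the core of the antioxidant response element bound by NRF2 (encoded by NFE2L2), were in 5 windows, 1 each of SLC7A5, SLC3A2, SLC1A5, SLC7A1 and SLC7A6, and in 13.3% of all windows. The matches shown in capitals are the E-box in SLC7A5 and SLC43A1 and the antioxidant element in SLC7A1 and SLC3A2, while the antioxidant match of SLC7A5 runs across its start and is not printed whole. The 3 motifs did not overlap each other in the stretches shown. A match is a description of letters, and windows of 1 gene are not independent.

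SLC3A2, the heavy chain, had signals of 10.82, 10.84 and 10.74 in HHT, against 10.12, 10.04 and 10.18 in vehicle, on the log2 scale. The lowest HHT array lay above the highest vehicle array. SLC3A2 rose by 0.69 (SE 0.0751, adjusted p = 2.68e-05), and 81.7% of all genes had a lower change. It is measured by 1 probe set, so no second probe set of the gene bears on the direction. Its change lay between 0.58 and 0.97 over the other scalings, filters, variance models and left-out arrays, and it was called in each.

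SLC7A5, the LAT1 light chain, had signals of 9.04, 9.14 and 8.97 in HHT, against 12.14, 12.28 and 12.16 in vehicle. Its probe set is also the only one for the gene. SLC7A5 fell by 3.14 (SE 0.0781, adjusted p = 5.29e-09), and 7 of the 13572 genes had a lower fitted change. Its change stayed between -3.19 and -2.86 over the alternatives. Partial copies of SLC7A5 exist elsewhere in the genome, and the annotation gives this probe set to SLC7A5 alone, so their share of the signal was not tested.

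SLC7A11, the cystine carrier, had signals of 9.83, 10.02 and 9.80 in HHT, against 11.09, 10.98 and 10.85 in vehicle. It fell by 1.09 (SE 0.0916, adjusted p = 4.13e-06), a 2.13-fold lower signal. A second SLC7A11 probe set had 9.80, 9.79 and 9.51 in HHT, against 10.48, 10.49 and 10.39 in vehicle, and fell by 0.75 (SE 0.0965, adjusted p = 8.65e-05). In both, the HHT arrays were all below the vehicle arrays. The third was dim, averaging 5.15 ± 0.206 in HHT and 5.26 ± 0.668 in vehicle (SD, n = 3 each). It was not called at -0.11, with a 95% interval of -1.21 to 0.98 that holds the values of the other SLC7A11 probe sets, so its precision allows no statement on the gene. Of the called SLC7A11 probe sets, only for the second did a scaling move the value by over 1.5 times, to -0.47 with equal hybridisation controls, where it was still called (adjusted p = 0.00491).

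SLC7A6, the y+LAT2 light chain, had signals of 9.50, 9.35 and 9.29 in HHT, against 10.60, 10.76 and 10.41 in vehicle. It fell by 1.21 (SE 0.105, adjusted p = 5.26e-06), a 2.31-fold lower signal. A second SLC7A6 probe set had 6.65, 6.67 and 6.61 in HHT, against 8.08, 7.58 and 7.24 in vehicle, and fell by 0.99 (SE 0.234, adjusted p = 0.00525). The third had 7.48, 7.69 and 8.03 in HHT, against 8.12, 8.00 and 8.10 in vehicle. HHT replicate 3 lay within the vehicle range there. That probe set was not called at -0.34 (95% interval -0.72 to 0.03, adjusted p = 0.122), and was called without HHT replicate 3 (-0.49, adjusted p = 0.0428).

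These light chains, SLC7A5, SLC7A11 and SLC7A6, thus moved opposite to the heavy chain. This does not hold for all its light chains. SLC7A7 and SLC7A8, which are not among the genes examined, rose by 0.64 and 0.92, with calls lost when some arrays were left out (described below). The difference between the log2 signals of both chains on the same array is unaffected by a shift of the whole array. SLC7A5 minus SLC3A2 was -1.78, -1.70 and -1.77 on the HHT arrays and 2.02, 2.25 and 1.98 on the vehicle arrays. The balance between these mRNAs was 14.2-fold lower in HHT for SLC7A5 (-3.83, SE 0.0877), 3.42-fold lower for SLC7A11 (-1.78, SE 0.109) and 3.72-fold lower for SLC7A6 (-1.90, SE 0.152). Each had groups that did not overlap and an exact permutation p of 0.1 (two-sided), the smallest that 3 against 3 allows, and 0.1 after adjustment over the 6 pairs compared. Groups did not overlap in 62.2% of all single genes, and the share over all pairs of genes was not computed. The level of a probe set depends on its probes, so a difference on 1 array does not say which mRNA was more abundant. With the mean of all its tested probe sets, the value was -1.34 for SLC7A11 and -1.53 for SLC7A6.

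**Figure D2:**
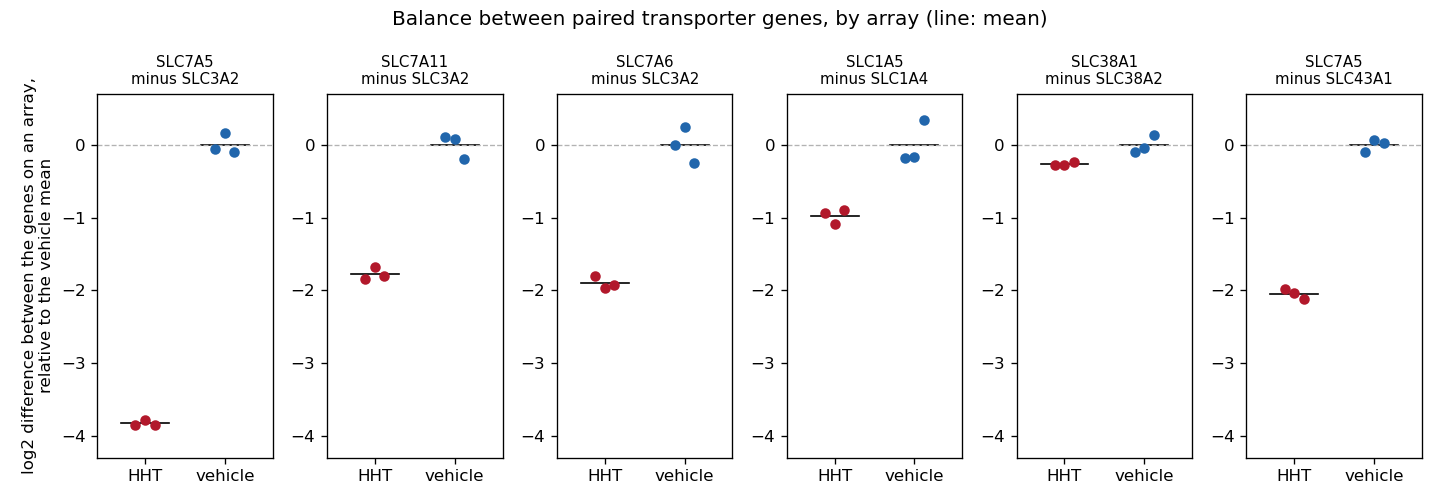
Log2 signal of 1 transporter gene minus that of its partner on the same array (y axis, set to 0 at the vehicle mean) for 6 pairs, on the 3 HHT and the 3 vehicle arrays (x axis), with 1 point per array and a line at the mean. The SLC7A5 and SLC3A2 pair differs by -3.83 between HHT and vehicle, and the SLC38A1 and SLC38A2 pair by -0.26, with no overlap of groups in any of the 6. Of all single genes, 62.2% had groups that did not overlap, and the share over pairs was not computed.

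SLC43A1, a leucine carrier of another family, had signals of 9.01, 9.17 and 9.07 in HHT, against 10.22, 10.20 and 10.11 in vehicle. It fell by 1.10 (SE 0.0883, adjusted p = 3.06e-06), a 2.14-fold lower signal, and has 1 probe set. SLC7A5 and SLC43A1 were thus both lower, and SLC7A5 more so. This does not hold for every relative of theirs outside the 10 genes. SLC43A2 was not called at 1.03 (SE 0.424, adjusted p = 0.0701). SLC7A8 rose by 0.92 and SLC7A2 fell by 2.02, both described below. SLC7A5 minus SLC43A1 changed by -2.05 in HHT (SE 0.0639, exact permutation p = 0.1, two-sided, 0.1 over the 6 pairs), with -0.10 to 0.03 on the HHT arrays and 1.92 to 2.08 on the vehicle arrays.

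SLC7A1, the arginine and lysine carrier, had signals of 10.92, 10.81 and 10.83 in HHT, against 12.69, 12.39 and 12.48 in vehicle. It fell by 1.67 (SE 0.0809, adjusted p = 1.30e-07), and 1.55% of all genes had a lower change. Another SLC7A1 probe set had 7.75, 8.33 and 8.44 in HHT, against 9.47, 9.47 and 9.99 in vehicle. It fell by 1.47 (SE 0.197, adjusted p = 0.000118). A dimmer SLC7A1 probe set had 5.70, 5.86 and 6.24 in HHT, against 7.28, 7.15 and 7.34 in vehicle, and fell by 1.33 (SE 0.245, adjusted p = 0.00111). With 64 added to the antilog signals this one gave -0.79 (adjusted p = 0.000722). In all 3, no HHT array reached the lowest vehicle array. The fourth, at 4.62 ± 0.511 in HHT and 5.24 ± 0.508 in vehicle (SD, n = 3 each), was not called at -0.62 (adjusted p = 0.391). The fifth SLC7A1 probe set did not pass the filter, with 3.29, 4.45 and 2.49 in HHT and 5.62, 4.28 and 5.32 in vehicle, and was not tested.

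SLC1A5, the sodium-dependent glutamine carrier, had signals of 8.03, 7.66 and 7.87 in HHT, against 8.93, 8.83 and 9.38 in vehicle. It fell by 1.19 (SE 0.168, adjusted p = 0.000166), a 2.29-fold lower signal from its only probe set. Its replicates spread more than those of the other genes' brightest probe sets, with SDs of 0.181 in HHT and 0.297 in vehicle, and the highest HHT array still lay below the lowest vehicle array.

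SLC1A4, its nearest relative, was the gene without a call. Its brightest probe set had 9.57, 9.36 and 9.37 in HHT, against 9.71, 9.60 and 9.65 in vehicle, groups that lay close but did not overlap. The change was -0.22 (SE 0.0954, 95% interval -0.43 to -0.0093, adjusted p = 0.0824). Leaving out HHT replicate 1 brought it to -0.29 (adjusted p = 0.0409) and quantile normalization to -0.33 (adjusted p = 0.0191), both called, and its sign turned with equal medians (0.02) and equal hybridisation controls (0.06). Of the 4 other SLC1A4 probe sets, 1 was called lower at -0.41 (SE 0.0914, adjusted p = 0.00397), with 9.03, 8.97 and 9.04 in HHT, against 9.45, 9.43 and 9.38 in vehicle. This is a probe set of the x type, whose probes may bind related sequences, and its call was lost under equal medians, at -0.17 (adjusted p = 0.331), and under equal hybridisation controls, at -0.12 (adjusted p = 0.402). The remaining 3 were at -0.18, 0.11 and -0.04, not called. No call of SLC1A4 thus held under every scaling, and the sign of its brightest probe set turned. The x-type probe set stayed negative over all alternatives, from -0.50 to -0.12. SLC1A5 minus SLC1A4 changed by -0.97 in HHT (SE 0.181, exact permutation p = 0.1, two-sided, 0.1 over the 6 pairs), at -1.58 ± 0.103 on the HHT arrays and -0.61 ± 0.297 on the vehicle arrays (SD, n = 3 each).

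SLC38A1, a sodium-coupled glutamine carrier, had signals of 13.29, 13.28 and 13.32 in HHT, against 14.27, 14.21 and 14.18 in vehicle. It fell by 0.92 (SE 0.0488, adjusted p = 2.12e-07). A second bright SLC38A1 probe set had 12.53, 12.51 and 12.53 in HHT, against 13.51, 13.35 and 13.38 in vehicle, and fell by 0.89 (SE 0.0571, adjusted p = 7.00e-07). The third had 8.20, 9.46 and 8.99 in HHT, against 9.29, 9.03 and 10.13 in vehicle. Its groups overlapped and it was not called at -0.60 (adjusted p = 0.157), though it was without HHT replicate 2 (-0.88, adjusted p = 0.0489). The fourth SLC38A1 probe set, at 3.10 ± 0.510 in HHT and 3.56 ± 0.932 in vehicle (SD, n = 3 each), did not pass the filter. After quantile normalization the brightest gave -0.59, still called (adjusted p = 8.87e-07).

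SLC38A2, a carrier known to be induced when cells lack amino acids, had signals of 13.41, 13.39 and 13.39 in HHT, against 14.21, 14.10 and 13.88 in vehicle. It fell by 0.66 (SE 0.0757, adjusted p = 3.75e-05). A second SLC38A2 probe set had 12.73, 12.71 and 12.72 in HHT, against 13.66, 13.54 and 13.34 in vehicle, and fell by 0.80 (SE 0.0749, adjusted p = 8.96e-06). The third had 12.62, 12.45 and 12.54 in HHT, against 13.62, 13.41 and 13.03 in vehicle, and fell by 0.81 (SE 0.122, adjusted p = 0.000259). The brightest and the second are probe sets of the x type, whose probes may bind related sequences, and the third is of the s type. In all 3 the HHT arrays lay below the vehicle arrays and, in HHT, the SDs were 0.0107 to 0.0809. Those in vehicle were 0.160 to 0.300. The brightest gave -0.31 after quantile normalization (adjusted p = 0.00207), -0.38 with equal hybridisation controls (adjusted p = 0.00325) and -0.42 with equal medians (adjusted p = 0.00353), called each time. With equal hybridisation controls the other SLC38A2 probe sets gave -0.51 (adjusted p = 0.000321) and -0.53 (adjusted p = 0.00439), also called. SLC38A1 and SLC38A2 were among the 1635 genes with a mean level over 12, of which 52.1% were called lower, with a median change of -0.19. SLC38A1 minus SLC38A2 changed by -0.26 in HHT (SE 0.0725, exact permutation p = 0.1, two-sided, 0.1 over the 6 pairs). With the mean of the tested probe sets it was -0.04 (exact permutation p = 0.8, two-sided), so no difference between these relatives was established.

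Over all probe sets, 25 of the 27 passed the filter on dim signals. Of those, 16 were called lower, 1 higher and 8 not called, where 23.3% of all 32768 tested probe sets were called lower and 23% higher, or 46.3% in either direction. The HHT arrays lay below the vehicle arrays in 18 and above them in 1, where 29.4% and 26.5% of all probe sets did so. No gene had probe sets called in opposite directions. The 8 that were not called averaged at most 9.54 over all arrays. All probes of an s-type probe set match more than 1 transcript, often of the same gene or family, and some probes of an x-type one match further sequences. SLC7A5, SLC3A2, SLC1A5 and SLC43A1 each had 1 probe set, so these 4 have no check from a second.

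**Figure D3:**
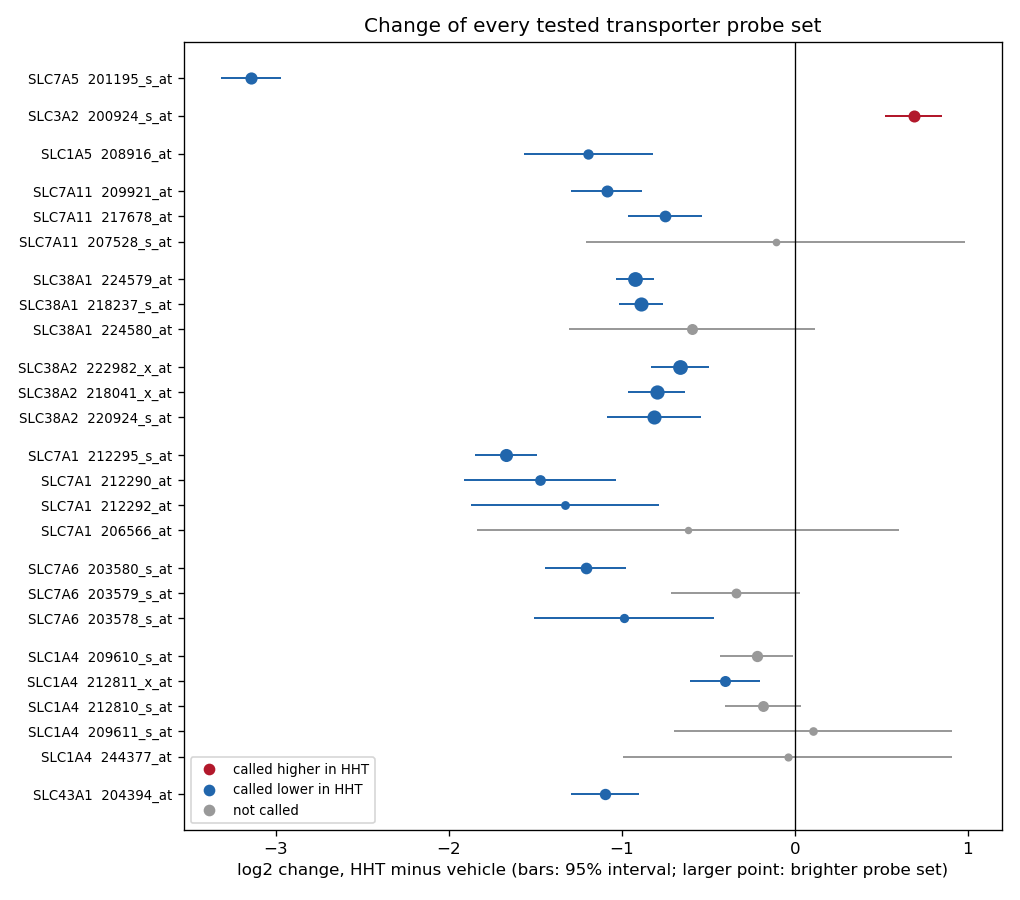
Log2 change, HHT minus vehicle, of the 25 tested probe sets of the transporter genes (x axis, bars for the 95% interval), grouped by gene from top to bottom, with larger points for brighter probe sets. The uncalled probe sets in grey include the dim ones with wide intervals and all but 1 of the 5 for SLC1A4.

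Scaling changed the size of the changes more than their direction. With equal medians, 8 genes were called lower and 1 higher, with a median of -0.85, where 12.7% of all genes were called lower and 37.3% higher. Equal hybridisation controls gave 8 and 1, with a median of -0.81, where 12.8% of all genes were lower and 41.6% higher. Quantile normalization gave 9 and 1, with a median of -1.19, where 22.9% of all genes were lower and 29.8% higher. SLC7A5 stayed the lowest of the 10 and SLC3A2 the highest under each of the 4 scalings.

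**Figure D4:**
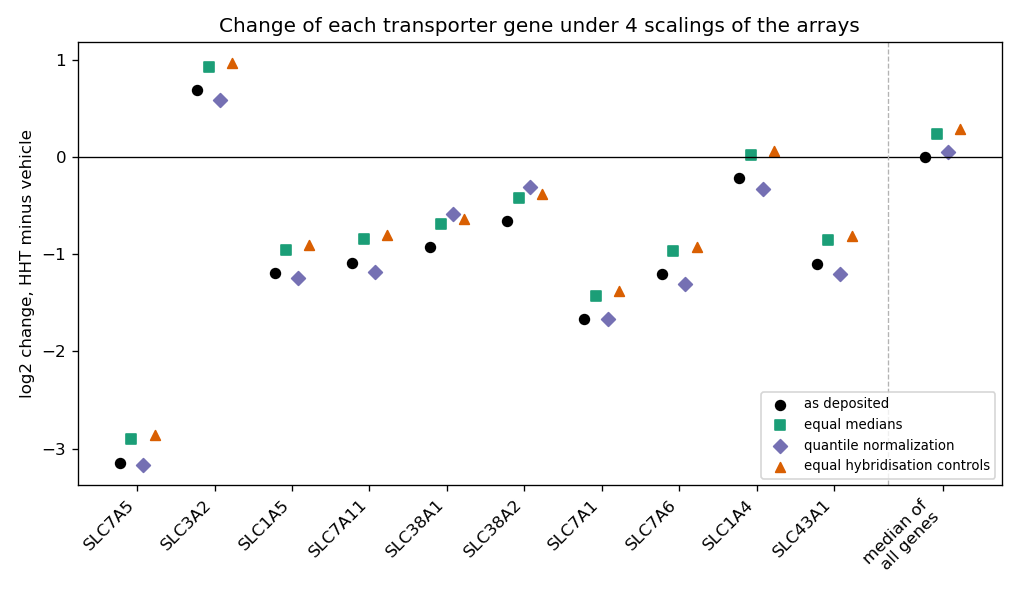
Log2 change, HHT minus vehicle (y axis), of the brightest probe set of each transporter gene (x axis) under 4 scalings of the arrays, with the median of all genes at the right. SLC1A4 crosses 0 between scalings, from -0.33 to 0.06, and SLC38A2 runs from -0.66 to -0.31.

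A list of 25 other plasma membrane amino acid transporters, compiled with earlier results known, was set beside these. Of 14 measured, 5 were lower, 3 higher and 6 not called, where 24.2% of all genes were lower, 29.6% higher and 53.8% either. The list's median was -0.11, and it turned positive under each other scaling. With equal medians it was 0.12, with 3 called lower and 4 higher, where 12.7% of all genes were lower and 37.3% higher. Equal hybridisation controls gave 0.17, with 3 and 5, where 12.8% of all genes were lower and 41.6% higher. Quantile normalization gave 0.09, with 5 and 4, where 22.9% of all genes were lower and 29.8% higher. SLC7A2, a cationic amino acid carrier like SLC7A1, had signals of 8.87, 8.87 and 8.70 in HHT, against 10.90, 10.82 and 10.77 in vehicle, and fell by 2.02 (SE 0.0882, adjusted p = 7.05e-08). SLC38A5, a sodium-coupled carrier of glutamine and serine, had 7.91, 7.80 and 7.74 in HHT, against 9.43, 9.45 and 9.53 in vehicle, and fell by 1.66 (SE 0.111, adjusted p = 9.07e-07). SLC1A7, a glutamate carrier, had 8.44, 8.07 and 7.97 in HHT, against 2.41, 6.32 and 6.96 in vehicle. The fitted change of SLC1A7 was 2.93 (SE 0.915, adjusted p = 0.0226), and vehicle replicate 1 weighs on its size, since without that array it was 1.52 (adjusted p = 0.000852). With 64 added to the antilog signals it was 1.51 (adjusted p = 0.00114). The call was lost when HHT replicate 1 (adjusted p = 0.0558) or HHT replicate 2 (adjusted p = 0.0522) was left out and with no variance trend (adjusted p = 0.109), and its other tested probe set was not called at 0.22.

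2 further light chains of SLC3A2 are in that list and were singled out after their values were seen. SLC7A7 (y+LAT1) had 7.39, 7.22 and 7.70 in HHT, against 6.63, 6.96 and 6.80 in vehicle, and rose by 0.64 (SE 0.208, adjusted p = 0.0261). SLC7A8 (LAT2) had 6.82, 6.95 and 7.19 in HHT, against 6.08, 5.74 and 6.38 in vehicle, and rose by 0.92 (SE 0.265, adjusted p = 0.0150). In both, the HHT arrays were all above the vehicle arrays. The SLC7A7 call was lost without HHT replicate 1 (adjusted p = 0.0503) or 3 (adjusted p = 0.118) and without vehicle replicate 1 (adjusted p = 0.0670) or 3 (adjusted p = 0.0510), and the SLC7A8 call without HHT replicate 3 (adjusted p = 0.0690). The other tested SLC7A8 probe set was not called at 0.07, and with 64 added to the antilog signals the brightest SLC7A8 probe set gave 0.54 (adjusted p = 0.0124). Whether these changes differ from those of SLC7A5, SLC7A6 and SLC7A11 was not tested.

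Of 10 regulators known to act on transporter genes, all of them transcription factors except TRIB3, 5 were called lower and 3 higher. Their median was -0.18, where 24.2% of all genes were lower and 29.6% higher. Equal medians gave a list median of 0.06 and equal hybridisation controls one of 0.11, with 3 called lower and 3 higher in both (12.7% and 37.3% of all genes in the first, 12.8% and 41.6% in the second). Quantile normalization gave -0.13, with 4 and 4, where 22.9% of all genes were lower and 29.8% higher. MYC, known to activate SLC7A5 and SLC1A5, was 9.75 ± 0.220 in HHT and 14.15 ± 0.0123 in vehicle (SD, n = 3 each), and fell by 4.40 (SE 0.0958, adjusted p = 5.29e-09). MYCN, its paralogue, was 10.21 ± 0.0385 in HHT and 11.74 ± 0.0552 in vehicle (SD, n = 3 each), and fell by 1.53 (SE 0.0666), while its other tested probe set was not called at -0.07. ATF4, the activator of the amino acid response, was at 13.95 ± 0.0473 in HHT and 14.10 ± 0.118 in vehicle (SD, n = 3 each) and was not called at -0.15 (adjusted p = 0.0843). It was called higher after quantile normalization (0.21, adjusted p = 0.0205) and lower without vehicle replicate 1 (-0.18, adjusted p = 0.0389), and was at 0.09 and 0.14, not called, with equal medians and equal hybridisation controls. Of its partners and targets, DDIT3 rose by 1.16 (SE 0.120) and ATF3 by 0.51 (SE 0.123), while TRIB3 fell by 1.32 (SE 0.0874) and CEBPG by 0.43 (SE 0.0830). CEBPB fell by 0.21 (SE 0.0565). The other tested probe sets were called for TRIB3 (-1.34) and CEBPG (-0.81, adjusted p = 1.19e-05) and not for ATF3 (0.33, adjusted p = 0.261). With equal hybridisation controls ATF3 gave 0.79 (adjusted p = 0.00037). The brightest probe sets of CEBPG and CEBPB were not called with equal medians or equal hybridisation controls, where CEBPG was at -0.19 and -0.15 and CEBPB at 0.03 and 0.07, nor was CEBPB after quantile normalization (adjusted p = 0.0561) or without a variance trend (adjusted p = 0.0801). NFE2L2, which encodes NRF2, an activator of SLC7A11, was not called at -0.12 (adjusted p = 0.143), and its sign turned with equal medians (0.12) and equal hybridisation controls (0.16), uncalled in both. BACH1, a repressor of antioxidant response genes, rose by 0.54 (SE 0.120, adjusted p = 0.00385), and by 0.82 with equal hybridisation controls, while its other tested probe set was not called at 0.29.

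**Figure D5:**
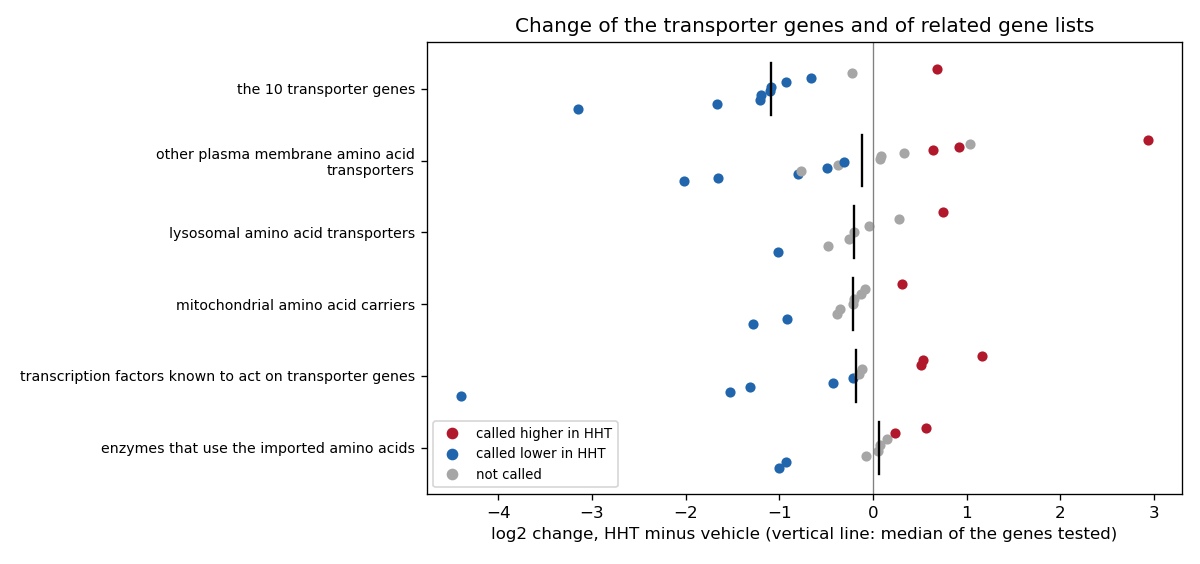
Log2 change, HHT minus vehicle (x axis), of the 10 transporter genes and of the tested genes of 5 related lists (rows), with 1 point per gene, coloured by call, and a line at each median. The medians are -1.09 for the 10 genes, -0.11 for other plasma membrane carriers, -0.20 for lysosomal carriers and -0.22 for mitochondrial carriers. They are -0.18 for the row of transcription factors, which includes TRIB3 although it is not one, and 0.06 for enzymes.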

How the data were processed

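The authors deposited log2 signals for 54675 probe sets on each array. The submitters' processing notes name MAS5, with no version or settings, and no source used here gives detection calls. The antilog signals shared a mean of 500.06 to 500.07 on all arrays after trimming each end, which shows a global scaling, and no pseudocount was added. No test included the 62 control probe sets. The dimmest 40% of the others by mean over all 6 arrays, up to a level of 4.80, were left out, and 32768 were tested with limma 3.58.1 in R 4.3.3 (lmFit, eBayes with a variance trend, Benjamini-Hochberg adjustment over all of them), which was tested on simulated data. The filter level was not measured as a limit of detection. The platform annotation named the 41091 single-gene probe sets, with symbols updated through RefSeq, and a gene was represented by its brightest tested probe set. The 10 genes, the other lists and the alternatives were chosen with earlier results of these data known. Of each other list, up to 3 called genes with the largest changes are named, and every listed regulator and myeloid marker. Pairs of genes were compared with an exact permutation test over arrays. Errors are SE for changes and SD for means. Precision is limited by the number of arrays. Replicates had a median SD of 0.583 in the dimmest quartile of tested probe sets and 0.0858 in the brightest. Array dates and slides were not used here. In the titles vehicle samples are numbered ahead of HHT samples, so any influence of order and that of HHT cannot be told apart.

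Same-numbered HHT and vehicle arrays had correlations of deviations from their group means of 0.0655, -0.0141 and 0.0491. Those of different-numbered arrays ran from -0.0887 to 0.0424. All were near 0, and with so few arrays they do not settle whether the numbers pair the arrays. Alternatives were equal medians, quantile normalization, equal hybridisation controls, no filter, a 60% filter, a pseudocount of 64, no variance trend, the replicate number as a block, an adjusted p under 0.01, an absolute log2 change of at least 1, averaging all probe sets of a gene and omitting each array in turn.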

Additional observations from a re-analysis of the deposited data

How the results depend on the processing

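Of the 10 genes, 8 or 9 were called lower and 1 higher under every alternative tried, except that requiring an absolute log2 change of at least 1 left 6 lower and 0 higher, since SLC3A2 changed by 0.69. Of the probe sets, that requirement left 8 lower and 0 higher, in place of 16 and 1. With the replicate block, 8 genes and 16 probe sets were called lower and 1 of each higher, and no call of a single probe set changed. The 9th gene, SLC1A4, was called without HHT replicate 1 and after quantile normalization.

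Signs turned only in probe sets that were not called. With equal medians these were a dim SLC7A11 probe set (0.13) and 3 of SLC1A4 (0.018, 0.057 and 0.20). With equal hybridisation controls they were the same ones (0.17 for SLC7A11, and 0.063, 0.10 and 0.24 for SLC1A4). After quantile normalization they were the dim SLC7A11 probe set (0.16) and 1 of SLC1A4 (0.18). When arrays were left out in turn, the dim SLC7A11 probe set ran from -0.42 to 0.25, turning without HHT replicate 1 (0.0075) or vehicle replicate 1 (0.25). A dim SLC1A4 probe set ran from -0.35 to 0.30, turning without HHT replicate 3 (0.22) or vehicle replicate 1 (0.30), and another from -0.28 to 0.45, turning without vehicle replicate 3 (-0.28). A shift of every probe set by 0.24 or 0.28 is built into the first and second of these scalings, and for the others the cause was not tested. Among pairs of genes, the mean of probe sets moved the difference of changes to -1.34 for SLC7A11 and SLC3A2, -1.53 for SLC7A6 and SLC3A2 and -0.04 for SLC38A1 and SLC38A2. For SLC1A5 and SLC1A4 it ran from -1.06 to -0.80 when arrays were left out. Signal over background limits what the dim probe sets can show.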

Other observations

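As deposited, the counts for carriers of the inner membranes and for enzymes that use the imported amino acids stood near or below the shares of all genes. Those shares were 24.2% lower and 29.6% higher, so the counts set none of these lists apart in that scaling. Counts and shares under the other scalings are given below, and whether any list departs from all genes was not tested. Of 7 lysosomal amino acid transporters, 1 was lower, 1 higher and 5 not called, with a median of -0.20. MFSD12, needed for cysteine import into lysosomes, fell by 1.02 (SE 0.144, adjusted p = 0.000178), while its other tested probe set was not called at -0.43. SLC66A1, which exports cationic amino acids from lysosomes, rose by 0.75 (SE 0.218, adjusted p = 0.0160), a call lost without vehicle replicate 1 (adjusted p = 0.0518). Of its other tested probe sets, 1 rose by 0.64 (adjusted p = 0.0207) and 1 was not called at -0.32.

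Of 9 mitochondrial amino acid carriers measured, 2 were lower, 1 higher and 6 not called, with a median of -0.22. The medians of the lysosomal and mitochondrial lists turned positive under equal medians (0.04 and 0.02) and under equal hybridisation controls (0.08 and 0.07). Quantile normalization gave 4 lower and 0 higher in the mitochondrial list, with a median of -0.32, and 2 lower and 1 higher in the lysosomal list, with a median of -0.26. Of all genes, 22.9% were then lower and 29.8% higher. Equal medians and equal hybridisation controls each gave 2 lower and 1 higher in the mitochondrial list, and 1 lower and 2 higher in the lysosomal list. Of all genes, 12.7% and 12.8% were lower in these scalings, and 37.3% and 41.6% higher. SFXN1, the mitochondrial serine carrier, averaged 9.80 ± 0.0410 in HHT and 11.09 ± 0.153 in vehicle (SD, n = 3 each) and fell by 1.28 (SE 0.0889, adjusted p = 1.12e-06), and its 2 other tested probe sets fell by 1.22 and 1.16. SLC25A15, the ornithine carrier, fell by 0.91 (SE 0.0901, adjusted p = 1.28e-05). SLC25A12, an aspartate and glutamate carrier, rose by 0.31 (SE 0.0906, adjusted p = 0.0152), a call lost under quantile normalization (adjusted p = 0.110), with no variance trend (adjusted p = 0.0572) and when HHT replicate 2 was left out (adjusted p = 0.0529), while equal medians gave 0.55 and equal hybridisation controls 0.60. Of 8 enzymes measured, 2 were lower, 2 higher and 4 not called, with a median of 0.06. Equal medians gave 2 lower and 2 higher, with a median of 0.30, where 12.7% of all genes were lower and 37.3% higher. Equal hybridisation controls gave 2 and 4, with a median of 0.35, where 12.8% of all genes were lower and 41.6% higher. Quantile normalization gave 2 and 1, with a median of -0.04, where 22.9% of all genes were lower and 29.8% higher. Both branched-chain aminotransferases fell, BCAT1 by 0.93 (SE 0.0600, adjusted p = 7.38e-07) and BCAT2 by 1.00 (SE 0.105, adjusted p = 1.97e-05). GSS, glutathione synthetase, rose by 0.57 (SE 0.0645, adjusted p = 3.67e-05), and by 0.85 with equal hybridisation controls.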
